A study of Mus musculus with 12 samples.

Results

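The NF-κB module described here is a set of 32 genes. It holds the 5 NF-κB subunits, genes listed as their inhibitors, and the kinases and adaptors that release the subunits. It also holds the A20 brake, the receptors and ligand that feed the pathway, and 5 inflammatory target genes. The members are a fixed list of symbols, and their mouse Ensembl identifiers were looked up in a table of 55487 genes, where all 32 were found. Of these, 28 passed the filter on low counts and were tested among 13581 genes, and 4 (*Traf1*, *Tnf*, *Icam1* and *Il6*) were too low to test. In outline, TGFβ raised *Cd40*, *Tnfaip3*, *Cebpd*, *Rel*, *Map3k14* and *Nfkb2* and lowered *Tnfaip2*, *Cebpb* and *Birc2*. The NNMT inhibitor lowered *Tnfaip2* with and without TGFβ. Without TGFβ it also lowered *Nfkbie*, *Tnfrsf1b* and *Nfkb1* and raised *Birc2*. In TGFβ-treated cells it lowered *Bcl3*, *Tnfaip3*, *Tnip1* and *Nfkbiz*. Some of these calls were lost when a library was left out. With TGFβ against control these were *Rel*, *Nfkb2*, *Map3k14* and *Cebpd*. Of the inhibitor calls they were *Nfkbie*, *Nfkb1* and *Birc2* without TGFβ, and *Tnfaip3*, *Tnip1* and *Nfkbiz* with it.

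NF-κB is a family of transcription factors that act as dimers. In resting cells IκB proteins hold most dimers in the cytoplasm. In the canonical branch, receptors of the TNF and interleukin-1 type activate the IκB kinase complex, which marks IκB for destruction and frees RelA with p50. In the non-canonical branch, receptors such as CD40 stabilise the kinase NIK, which leads to processing of p100 to p52 and frees RelB. Several inhibitors, such as IκBα and A20, are themselves NF-κB targets and close a feedback loop. In injured kidney tubules, NF-κB is known for driving chemokine, cytokine and adhesion molecule genes.

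The cells were im-TEC, a conditionally immortalized line of mouse tubular epithelium that carries SV40 large T antigen. Stocks grew at 33 °C with IFNgamma, and for 7 days before seeding all cells were held at 37 °C with no IFNgamma to lower large T activity. The growth medium of all groups contained serum, insulin, hydrocortisone and EGF. Treatment lasted 48 h in 4 groups of 3 libraries. The TGFβ+NNMTi cells received TGFβ at 10 ng/mL plus 50 µM of 5-amino-1-methylquinolinium, which inhibits NNMT, the TGFβ cells received TGFβ alone, the NNMTi cells received the inhibitor alone, and the control cells received neither. NNMT, nicotinamide N-methyltransferase, methylates nicotinamide. Whether the 3 libraries of a group were separate cultures is not stated in the labels, and p-values therefore reflect the spread between these samples alone, which may be technical. They also give no batch.

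RNA was read at the 3′ end of transcripts, so counts do not scale with gene length, and levels are given in CPM, that is counts divided by TMM-scaled library sizes. Libraries held 2584117 to 11866903 counts in genes, with the lowest total in TGFβ replicate 3. A count of 3 in a library corresponded to 0.266 to 1.15 CPM. The TGFβ libraries were the most spread, with a biological coefficient of variation of 0.112 in TGFβ+NNMTi, 0.228 in TGFβ, 0.0885 in NNMTi and 0.0657 in control libraries, and TGFβ replicates 2 and 3 stood apart. Their median absolute log2 deviation from the group median was 0.191 and 0.135, and that of the other libraries at most 0.0804. By chi-square per degree of freedom replicate 2 stood apart most, at 40.8 from replicate 1 and 31.6 from replicate 3, and replicates 1 and 3 gave 6.24. Replicate 3 was the shallowest library, and the part of depth in its values was not tested. Calls of members that changed when both were left out are given beside the result. Those values rest on TGFβ replicate 1 alone for that group. The tubular label was checked with 16 markers. *Pax8*, *Pax2* and *Lrp2* were present in all groups, but *Epcam* and *Slc34a1* had no count in any library and *Cdh1* had 9 counts in all. The summed level of the 16 markers was 775 to 809 CPM in TGFβ+NNMTi, 843 to 1180 CPM in TGFβ, 2000 to 2070 CPM in NNMTi and 1990 to 2140 CPM in control libraries. Most of that difference was *Aqp1*, a water channel, at a mean of 11.5 CPM in TGFβ+NNMTi, 25.2 CPM in TGFβ, 995 CPM in NNMTi and 1010 CPM in control libraries. The other 15 tubular markers summed to 768 to 794 CPM in TGFβ+NNMTi, 822 to 1160 CPM in TGFβ, 1030 to 1050 CPM in NNMTi and 1010 to 1080 CPM in control libraries, and the TGFβ libraries overlapped the controls. Within that sum markers moved both ways. From control to TGFβ the mean of *Krt8* went from 62.6 to 288 CPM, *Cdh16* from 213 to 76.0 and *Pax2* from 291 to 142. Of the 10 tubular markers tested, *Aqp1* included, 2 were called higher (20.0%) and 4 lower (40.0%) with TGFβ against control. Over all genes tested these shares were 19.4% and 17.1%. The 15 immune markers summed to 36.9 to 39.9 CPM in TGFβ+NNMTi, 58.7 to 79.0 CPM in TGFβ, 72.5 to 85.3 CPM in NNMTi and 101 to 102 CPM in control libraries. Most of that was *Csf1r*, *Cd14* and *Cd68*, while *Adgre1*, *Cd79a*, *Ms4a1*, *Nkg7* and *Tyrobp* had no count. The 8 fibroblast markers, mostly *Col1a1*, summed to 37.4 to 47.3 CPM in TGFβ+NNMTi and 156 to 195 CPM in TGFβ libraries. Their sum was 3.3 to 5.21 CPM in NNMTi and 3.93 to 7.92 CPM in control libraries. *Pdgfra*, *Lum* and *Thy1* had no count. From control to TGFβ the mean of *Col1a1* went from 4.54 to 165 CPM, *Col1a2* from 0.408 to 7.62 and *Pdgfrb* from 0.513 to 5.75. Of the 3 fibroblast markers tested, 3 were called higher with TGFβ against control (100%), beside 19.4% of all genes. In TGFβ+NNMTi against TGFβ, 2 were called lower (66.7%), beside 6.97%. The 8 endothelial markers summed to 2.11 to 2.78 CPM in TGFβ+NNMTi, 2.48 to 4.43 CPM in TGFβ, 0.771 to 1.42 CPM in NNMTi and 1.23 to 3.15 CPM in control libraries, with *Cdh5*, *Kdr*, *Tie1* and *Emcn* at no count. These sums moved with the groups compared below, and their part in the results was not tested. In bulk RNA, fewer cells of a type and less RNA per cell cannot be told apart.

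Many NF-κB genes carry binding sites for NF-κB near their own start. RefSeq promoter windows (mouse build GRCm38.p6, 250 bases before to 50 bases after the start) were given for 25 of the 32 members and were searched on both strands. A match to the degenerate κB consensus was found in 11 of the 25 members (44.0%), against 9.55% of 27025 genes in the same table. The shorter κB core GGNNNTTCC, whose matches can overlap those of the consensus, was found in 16 of 25 members (64.0%), against 20.7% of all genes. A match is a stretch of letters and was not shown here to be bound. The windows below are shown because they belong to the subunit, inhibitor, adaptor and target genes whose levels are followed in the results. *Il6* is included as a gene with a textbook site that stayed near 0 counts in these cells. Capitals mark the match to the consensus, and each sequence is read 5′ to 3′ on the strand of its gene.
Rel (chr11:23771031-23771081, minus strand): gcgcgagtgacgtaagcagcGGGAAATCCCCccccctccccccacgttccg
Nfkb2 (chr19:46304678-46304728, plus strand): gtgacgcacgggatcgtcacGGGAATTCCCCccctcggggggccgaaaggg
Nfkbia (chr12:55492648-55492696, minus strand): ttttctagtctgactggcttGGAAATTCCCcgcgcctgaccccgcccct
Nfkbie (chr17:45555574-45555623, plus strand): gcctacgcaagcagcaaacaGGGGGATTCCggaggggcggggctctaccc
Traf3 (chr12:111166340-111166369, plus strand): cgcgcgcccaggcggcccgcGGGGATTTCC
Tnfaip3, upstream match (chr10:19015506-19015555, minus strand): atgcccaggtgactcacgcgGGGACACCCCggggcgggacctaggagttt
Tnfaip3, match next to the start (chr10:19015411-19015442, minus strand): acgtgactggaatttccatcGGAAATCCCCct
Tnip1 (chr11:54962967-54963018, minus strand): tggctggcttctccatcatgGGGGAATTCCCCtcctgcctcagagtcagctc
Tnfaip2 (chr12:111442617-111442660, plus strand): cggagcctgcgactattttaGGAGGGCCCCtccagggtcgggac
Il6 (chr5:30013050-30013099, plus strand): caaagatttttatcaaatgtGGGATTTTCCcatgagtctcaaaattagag
The capitals began 92 bases before the start in *Rel*, 39 in *Nfkb2*, 29 in *Nfkbia*, 106 in *Nfkbie*, 10 in *Traf3*, 58 in *Tnip1*, 24 in *Tnfaip2* and 44 in *Il6*. In *Tnfaip3* they began 125 and 12 bases before it. *Rel*, *Nfkb2* and *Tnip1* hold overlapping matches, which are printed as 1 run.

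**Figure D1:**
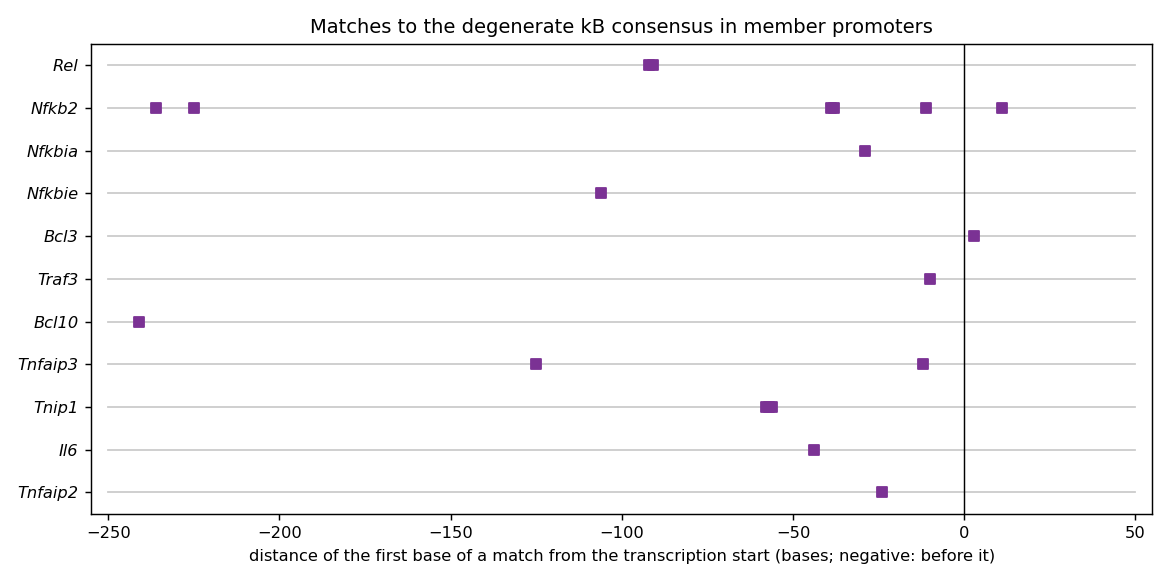
Position of each match to the degenerate κB consensus on either strand in the RefSeq windows of the 11 members that hold one, as the distance in bases of its first base from the transcription start. Grey lines are the searched windows, matches of genes with several starts are drawn relative to their own start, and *Nfkb2* holds the most matches.

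Members were counted as called where edgeR's quasi-likelihood test gave a Benjamini-Hochberg adjusted p below 0.05 over all 13581 genes. With TGFβ against control, 9 of 28 members were called (32.1%), beside 36.5% of all genes. There were 6 higher, beside 19.4% of all genes, and 3 lower, beside 17.1%. When counts were thinned to the shallowest library the split was 2 higher and 4 lower, since *Rel*, *Nfkb2*, *Map3k14* and *Cebpd* missed the threshold (adjusted p 0.0705, 0.0939, 0.0515 and 0.0567). With NNMTi against control, 5 members were called (17.9%), beside 8.27% of all genes, with 1 higher (2.47% of all genes) and 4 lower (5.8%). The split of calls over all genes was 335 higher and 788 lower, and it was 204 and 1036 when libraries were scaled by their totals alone, where the 5 members called were all lower. With TGFβ+NNMTi against TGFβ, 5 members were called (17.9%), beside 10.4% of all genes, with 0 higher (3.45%) and 5 lower (6.97%). With TGFβ+NNMTi against NNMTi, 10 members were called (35.7%), beside 36.3% of all genes, with 9 higher (18.0%) and 1 lower (18.3%). By totals alone the members were 7 higher and 2 lower, with no count of all genes given for that fit. The median log2 difference over the 28 members was 0.20 for TGFβ against control, −0.22 for NNMTi against control, 0.00 for TGFβ+NNMTi against TGFβ and 0.21 for TGFβ+NNMTi against NNMTi. Over all genes it was 0.02, 0.01, −0.02 and 0.00 in the same order. In this fit the share of members called was near that of all genes in the TGFβ contrasts. The member share was above that of all genes in the inhibitor contrasts, where each count is 5. In TGFβ+NNMTi against TGFβ, a fit of these groups alone kept only *Bcl3*, and thinning kept only *Bcl3* and *Tnfaip2*. Fewer of all genes were called in both alternatives as well, as given below. Members were also chosen with earlier results of these data known.

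**Figure D2:**
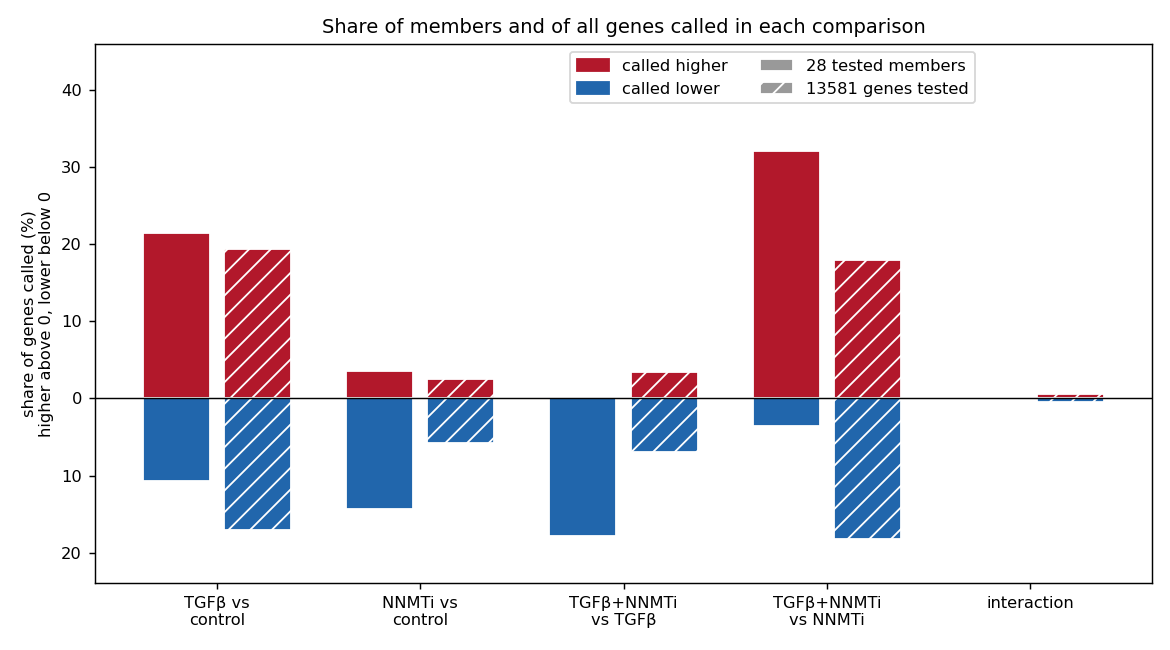
Share of the 28 tested members (plain bars) and of all 13581 genes tested (hatched bars) called higher (above 0) and lower (below 0) in each comparison, in percent. In TGFβ+NNMTi against TGFβ no member was called higher, and in the interaction no member was called.

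Among the subunits, *Rel*, *Nfkb2* and *Nfkb1* changed in 1 contrast or more, *Rela* changed in the presence of the inhibitor, and *Relb* passed no test. *Rel* (ENSMUSG00000020275) encodes c-Rel. It stood at 13.9, 15.4 and 16.9 CPM in TGFβ+NNMTi, 17.0, 25.4 and 17.2 CPM in TGFβ, 10.1, 11.9 and 11.6 CPM in NNMTi and 10.9, 14.6 and 14.3 CPM in control libraries. All TGFβ libraries lay above all control libraries, with replicate 2 highest. *Rel* rose 1.52-fold with TGFβ (log2 0.61 ± 0.19 SE, adjusted p 0.016). The adjusted p was 0.0868 when control replicate 1 was left out, 0.168 when TGFβ replicate 2 was, 0.295 when TGFβ replicates 2 and 3 both were, and 0.0584 when these groups alone were fitted. *Nfkb2* (ENSMUSG00000025225) encodes p100, the precursor of p52. It stood at 77.4, 83.2 and 76.7 CPM in TGFβ+NNMTi, 81.4, 103 and 82.3 CPM in TGFβ, 70.9, 80.3 and 60.2 CPM in NNMTi and 63.6, 68.3 and 73.6 CPM in control libraries. The TGFβ libraries lay above the control libraries, and the groups with the inhibitor overlapped. *Nfkb2* rose 1.31-fold with TGFβ (log2 0.38 ± 0.12 SE, adjusted p 0.0205), a call lost without control replicate 1 (0.093), control replicate 2 (0.0631), TGFβ replicate 2 (0.0939) or TGFβ replicates 2 and 3 together (0.203), and in a fit of these groups alone (0.0626). *Nfkb2* overlaps *Psd* on the other strand, and the strand used in counting is not given in the sources used here.

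*Nfkb1* (ENSMUSG00000028163) encodes p105, the precursor of p50. It stood at 187, 146 and 179 CPM in TGFβ+NNMTi, 165, 120.0 and 166 CPM in TGFβ, 88.9, 103 and 83.3 CPM in NNMTi and 133, 128 and 120.0 CPM in control libraries. The NNMTi libraries were the lowest of all 12, and TGFβ replicate 2 fell among the controls. *Nfkb1* fell 1.39-fold with NNMTi against control (log2 −0.47 ± 0.13 SE, adjusted p 0.0306), which passed when NNMTi replicate 2 was left out but not when any other library of the pair of groups was (adjusted p 0.0622 to 0.142). It rose 1.86-fold in TGFβ+NNMTi against NNMTi (log2 0.90 ± 0.13 SE, adjusted p 2.41e-05). With TGFβ alone the log2 difference from control was 0.23 ± 0.13 (adjusted p 0.173), and it was 0.37 (adjusted p 0.006) without TGFβ replicate 2 and 0.36 (adjusted p 0.0247) without TGFβ replicates 2 and 3. *Gm43430* overlaps *Nfkb1* on the same strand, so some reads may belong to it. *Rela* (ENSMUSG00000024927), which encodes p65, stood at 142, 171 and 135 CPM in TGFβ+NNMTi, 153, 119 and 161 CPM in TGFβ, 118, 119 and 117 CPM in NNMTi and 145, 136 and 138 CPM in control libraries. The NNMTi libraries were the lowest, level with TGFβ replicate 2. *Rela* rose 1.27-fold in TGFβ+NNMTi against NNMTi (log2 0.34 ± 0.12 SE, adjusted p 0.026), a call lost without TGFβ+NNMTi replicate 2 (0.148) or any of NNMTi replicates 1, 2 and 3 (0.0689, 0.0697 and 0.0714), and when libraries were scaled by totals alone (0.0654). *Relb*, the partner of p52, ranged from 24.6 to 38.4 CPM over the 12 libraries.

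**Figure D3:**
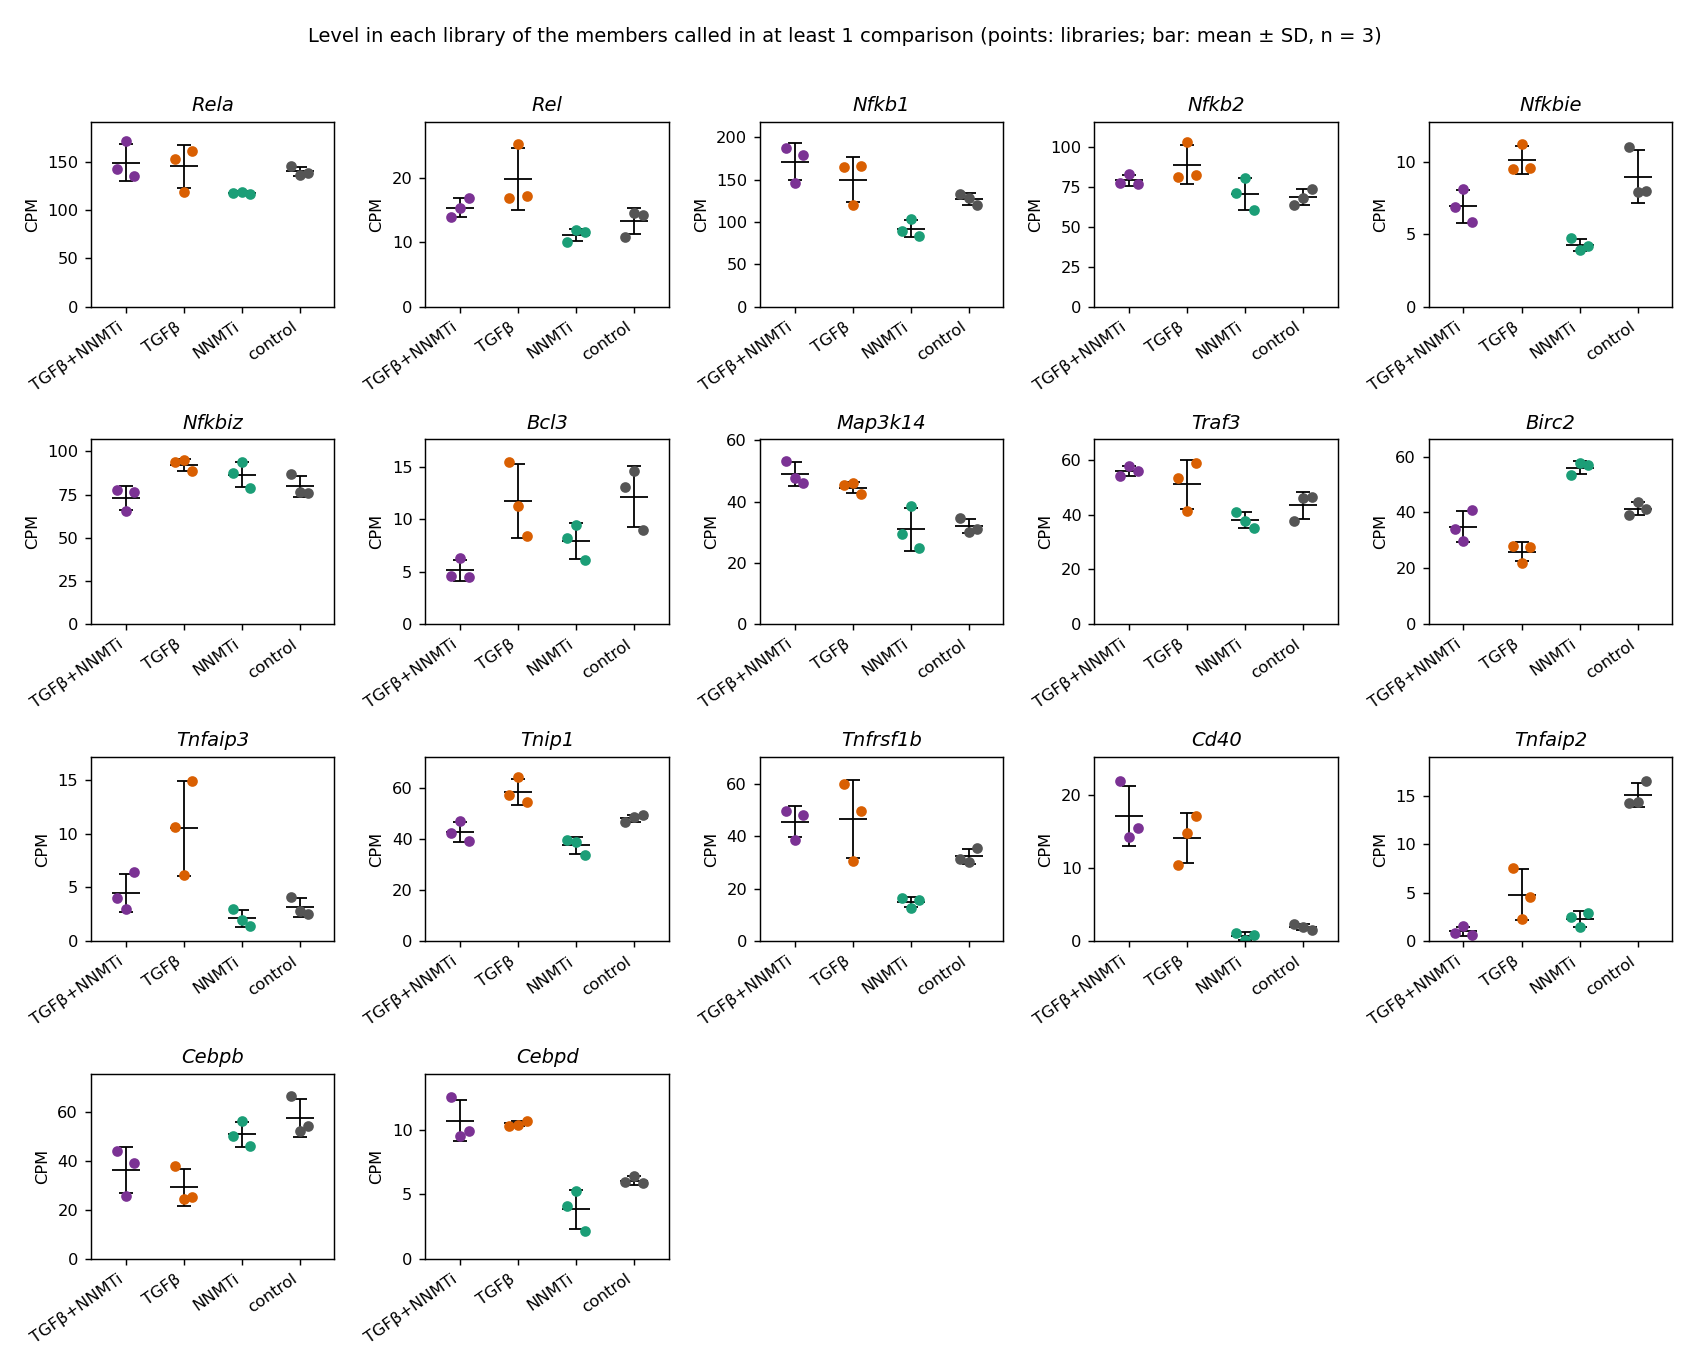
Level in CPM, on linear axes from 0, of the 17 members called in at least 1 comparison, in the 12 libraries by group. Points are libraries and bars are the mean ± SD of 3. *Cd40* separates the TGFβ-treated groups from the others, *Tnfaip2* is highest in the controls, and TGFβ libraries spread widely for *Tnfaip3* and *Tnfrsf1b*.

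The genes listed as inhibitors include *Nfkbia*, *Nfkbib* and *Nfkbie*, which encode cytoplasmic IκB proteins. They also include *Nfkbiz* and *Bcl3*, whose nuclear products bind p50 or p52 on DNA. Whether the *Nfkbiz* and *Bcl3* products inhibit NF-κB in these cells was not tested. None of the 5 passed the test with TGFβ against control. *Nfkbie* (ENSMUSG00000023947), which encodes IκBε, stood at 6.83, 8.09 and 5.81 CPM in TGFβ+NNMTi, 9.48, 11.2 and 9.57 CPM in TGFβ, 4.73, 3.9 and 4.15 CPM in NNMTi and 11, 7.87 and 7.96 CPM in control libraries. All NNMTi libraries lay below every other library. *Nfkbie* fell 2.10-fold with NNMTi against control (log2 −1.07 ± 0.23 SE, adjusted p 0.00609, and 0.0509 without control replicate 1). It was 1.62-fold higher in TGFβ+NNMTi than in NNMTi (log2 0.70 ± 0.23 SE, adjusted p 0.0251), a call lost without NNMTi replicate 2 (0.0782), NNMTi replicate 3 (0.0612) or TGFβ+NNMTi replicate 2 (0.0958). In TGFβ+NNMTi against TGFβ the libraries were lower without overlap, with a log2 difference of −0.56 ± 0.22 (adjusted p 0.122).

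*Bcl3* (ENSMUSG00000053175) stood at 4.63, 6.29 and 4.49 CPM in TGFβ+NNMTi, 15.5, 11.3 and 8.42 CPM in TGFβ, 8.26, 9.46 and 6.12 CPM in NNMTi and 13.1, 14.6 and 8.97 CPM in control libraries. All TGFβ+NNMTi libraries lay below all TGFβ libraries. *Bcl3* fell 2.36-fold in TGFβ+NNMTi against TGFβ (log2 −1.24 ± 0.27 SE, adjusted p 0.00609), and the call held with each library left out in turn (adjusted p 0.00205 to 0.0396). Against control, NNMTi alone gave a log2 difference of −0.62 ± 0.25 (adjusted p 0.149) with overlapping libraries. *Nfkbiz* (ENSMUSG00000035356), which encodes IκBζ, stood at 77.6, 65.3 and 76.2 CPM in TGFβ+NNMTi, 93.8, 94.8 and 88.4 CPM in TGFβ, 87.4, 93.6 and 78.9 CPM in NNMTi and 86.7, 76.6 and 75.9 CPM in control libraries. The TGFβ+NNMTi libraries lay below the TGFβ libraries and overlapped the controls. *Nfkbiz* fell 1.27-fold in TGFβ+NNMTi against TGFβ (log2 −0.34 ± 0.11 SE) at an adjusted p of 0.0496. With 1 library left out, the call was kept without TGFβ replicate 3 (0.0365) and missed without any other library of these groups (0.0535 to 0.218). It was also missed without TGFβ replicates 2 and 3 together (0.0914) and in a fit of these groups alone (0.22), and kept by DESeq2 (0.0309) and voom (0.0303). *Nfkbia*, which encodes IκBα, ranged from 167 to 252 CPM and *Nfkbib*, which encodes IκBβ, from 25.4 to 37.2 CPM over the 12 libraries. *Nfkbia* had log2 differences between −0.12 and 0.07 in the 4 pairwise contrasts, although its window holds a consensus match.

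The kinase genes were *Ikbkb* (IKKβ), *Chuk* (IKKα), *Ikbkg* (the scaffold NEMO) and *Map3k14*, which encodes NIK, the kinase that starts the non-canonical branch. Of these 4, *Map3k14* changed and the others passed no test. *Map3k14* (ENSMUSG00000020941) stood at 53.4, 47.8 and 46.0 CPM in TGFβ+NNMTi, 45.3, 46.0 and 42.5 CPM in TGFβ, 29.5, 38.6 and 24.7 CPM in NNMTi and 34.5, 30.1 and 31.1 CPM in control libraries. Every TGFβ-treated library lay above every library without TGFβ. *Map3k14* rose 1.40-fold with TGFβ against control (log2 0.49 ± 0.14 SE, adjusted p 0.0125, and 0.0557 without control replicate 2). It rose 1.59-fold in TGFβ+NNMTi against NNMTi (log2 0.67 ± 0.14 SE, adjusted p 0.00116), and there the call held with each library left out. A further gene, *1700028N14Rik*, overlaps *Map3k14* on the same strand. *Ikbkb* ranged from 62.3 to 98.9 CPM, *Chuk* from 64.8 to 90.3 CPM and *Ikbkg* from 17.7 to 31.0 CPM over the 12 libraries.

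The adaptor genes encode TRAF proteins, which recruit the ubiquitin ligases cIAP1 (*Birc2*) and cIAP2 (*Birc3*) to receptors and, with them, mark NIK for degradation in resting cells. *Bcl10* and *Malt1* encode partners of CARD proteins upstream of the IκB kinases. *Birc2* (ENSMUSG00000057367) stood at 34.0, 29.7 and 40.9 CPM in TGFβ+NNMTi, 28.1, 22.0 and 27.5 CPM in TGFβ, 53.3, 57.6 and 57.1 CPM in NNMTi and 39.1, 43.7 and 41.1 CPM in control libraries. The NNMTi libraries were highest and the TGFβ libraries lowest, with no overlap between TGFβ and control, NNMTi and control, or TGFβ+NNMTi and TGFβ. *Birc2* fell 1.61-fold with TGFβ against control (log2 −0.69 ± 0.14 SE, adjusted p 0.000752) and 1.61-fold in TGFβ+NNMTi against NNMTi (log2 −0.69 ± 0.13 SE, adjusted p 0.000498), and both calls held with each library left out. It rose 1.36-fold with NNMTi against control (log2 0.44 ± 0.13 SE, adjusted p 0.0461), but this call was lost without any of the 6 libraries (0.0986 to 0.18). In TGFβ+NNMTi against TGFβ the log2 difference was 0.44 ± 0.14 with an adjusted p of 0.0525, and it passed without TGFβ replicate 1 (0.0447), TGFβ replicate 3 (0.0394) or TGFβ+NNMTi replicate 2 (0.0289).

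*Traf3* (ENSMUSG00000021277) stood at 54.4, 58.0 and 56.1 CPM in TGFβ+NNMTi, 53.6, 41.4 and 58.9 CPM in TGFβ, 41, 37.9 and 35.2 CPM in NNMTi and 37.6, 46.1 and 46.7 CPM in control libraries. The TGFβ+NNMTi libraries lay above the NNMTi libraries, while TGFβ replicate 2 fell among the controls. *Traf3* rose 1.48-fold in TGFβ+NNMTi against NNMTi (log2 0.56 ± 0.13 SE, adjusted p 0.00277), with each library left out as well. With TGFβ against control its log2 difference was 0.22 ± 0.14 (adjusted p 0.228), and 0.35 (adjusted p 0.028) without TGFβ replicate 2. *Traf2* ranged from 6.62 to 15.3 CPM, *Birc3* from 6.12 to 12.6 CPM, *Bcl10* from 74.7 to 110 CPM and *Malt1* from 13 to 18.8 CPM, and none of these passed a test. *Traf1*, a TRAF gene known as an NF-κB target, had 0 counts in TGFβ+NNMTi, 8 in TGFβ, 0 in NNMTi and 3 in control libraries, summed over 3 libraries. The exact 95% counting intervals of these sums were 0 to 3.69, 3.45 to 15.8, 0 to 3.69 and 0.619 to 8.77 counts, and the groups were not tested.

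*Tnfaip3* encodes A20, a ubiquitin-editing enzyme that ends NF-κB signalling, and *Tnip1* encodes its partner ABIN-1. *Tnfaip3* (ENSMUSG00000019850) stood at 4.05, 3.03 and 6.47 CPM in TGFβ+NNMTi, 10.6, 6.11 and 14.9 CPM in TGFβ, 2.97, 2.01 and 1.42 CPM in NNMTi and 4.13, 2.78 and 2.52 CPM in control libraries. TGFβ libraries lay above all control libraries but varied widely, and TGFβ+NNMTi replicate 3 lay above TGFβ replicate 2. *Tnfaip3* rose 3.16-fold with TGFβ against control (log2 1.66 ± 0.37 SE, adjusted p 0.00165), and the call held with each library left out. It fell 2.22-fold in TGFβ+NNMTi against TGFβ (log2 −1.15 ± 0.36 SE, adjusted p 0.0493), and this was lost without TGFβ replicate 1 (0.114), TGFβ replicate 3 (0.109), TGFβ+NNMTi replicate 1 (0.16) or TGFβ+NNMTi replicate 2 (0.187), without TGFβ replicates 2 and 3 together (0.0609), and in a fit of these groups alone (0.144). Against NNMTi, TGFβ+NNMTi was 2.09-fold higher (log2 1.06 ± 0.40 SE, adjusted p 0.0431), lost without NNMTi replicate 2 (0.112), NNMTi replicate 3 (0.164), TGFβ+NNMTi replicate 1 (0.0695) or TGFβ+NNMTi replicate 3 (0.217). *Tnip1* (ENSMUSG00000020400) stood at 42.4, 46.9 and 39.0 CPM in TGFβ+NNMTi, 57.0, 64.0 and 54.3 CPM in TGFβ, 39.7, 38.7 and 33.6 CPM in NNMTi and 46.4, 48.4 and 49.2 CPM in control libraries. The TGFβ+NNMTi libraries lay below the TGFβ libraries, and the NNMTi libraries below the control libraries. *Tnip1* fell 1.37-fold in TGFβ+NNMTi against TGFβ (log2 −0.46 ± 0.12 SE, adjusted p 0.0181), a call lost without TGFβ+NNMTi replicate 1 (0.066) or 3 (0.1), without TGFβ replicates 2 and 3 together (0.085), and in a fit of these groups alone (0.123). In NNMTi against control its log2 difference was −0.36 ± 0.12 with an adjusted p of 0.0666.

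The receptors gave the largest difference in the module. *Cd40* (ENSMUSG00000017652) encodes a TNF receptor family member best known from B cells and macrophages that signals to both NF-κB branches. It stood at 21.9, 14.3 and 15.5 CPM in TGFβ+NNMTi, 10.4, 14.8 and 17.2 CPM in TGFβ, 1.1, 0.118 and 0.874 CPM in NNMTi and 2.34, 1.94 and 1.51 CPM in control libraries. Every TGFβ-treated library lay far above every library without TGFβ, and the NNMTi libraries were the lowest. *Cd40* rose 7.13-fold with TGFβ against control (log2 2.83 ± 0.34 SE, adjusted p 2.4e-06) and 23.8-fold in TGFβ+NNMTi against NNMTi (log2 4.57 ± 0.38 SE, adjusted p 2.07e-08). With each library left out the adjusted p stayed at or below 5.69e-05 and 7.44e-07, and voom put the log2 difference from NNMTi at 5.29. The B cell markers *Cd79a* and *Ms4a1* had no count in any library. Without TGFβ, NNMTi against control gave a log2 difference of −1.42 ± 0.47 (adjusted p 0.0757), with 10, 1 and 8 counts in the NNMTi libraries and 21, 16 and 15 in the control libraries.

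*Tnfrsf1b* (ENSMUSG00000028599) encodes TNF receptor 2. It stood at 49.8, 38.8 and 48.2 CPM in TGFβ+NNMTi, 59.9, 30.6 and 49.7 CPM in TGFβ, 16.5, 12.7 and 15.9 CPM in NNMTi and 31.5, 30.3 and 35.7 CPM in control libraries. The NNMTi libraries were by far the lowest, and TGFβ replicate 2 fell among the controls. *Tnfrsf1b* fell 2.16-fold with NNMTi against control (log2 −1.11 ± 0.20 SE, adjusted p 0.00221) and was 3.02-fold higher in TGFβ+NNMTi than in NNMTi (log2 1.60 ± 0.20 SE, adjusted p 8.34e-06). Both calls held with each library left out. TGFβ against control gave a log2 difference of 0.51 ± 0.20 at an adjusted p of 0.0504, which was 0.77 and 0.000109 without TGFβ replicate 2, and 0.87 and 0.000123 without TGFβ replicates 2 and 3. *Tnfrsf1a*, which encodes TNF receptor 1, ranged from 94.4 to 151 CPM and passed no test. The ligand *Tnf* had 0 counts in TGFβ+NNMTi, 2 in TGFβ, 0 in NNMTi and 0 in control libraries, and was not detectable at this depth in 3 of the 4 groups.

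Of the 5 target genes, *Tnfaip2*, *Cebpb* and *Cebpd* could be tested. *Tnfaip2* (ENSMUSG00000021281) was first known as a TNF-induced gene. It stood at 0.81, 1.57 and 0.66 CPM in TGFβ+NNMTi, 7.54, 2.3 and 4.59 CPM in TGFβ, 2.53, 1.42 and 2.95 CPM in NNMTi and 14.3, 14.4 and 16.5 CPM in control libraries. The controls were highest without overlap, and TGFβ+NNMTi libraries lay below all TGFβ libraries. *Tnfaip2* fell 3.14-fold with TGFβ against control (log2 −1.65 ± 0.35 SE, adjusted p 0.00107), and by log2 −2.34 without TGFβ replicate 1 and −1.01 (adjusted p 0.0271) without TGFβ replicates 2 and 3. It fell 6.49-fold with NNMTi against control (log2 −2.70 ± 0.36 SE, adjusted p 9.42e-05). In TGFβ+NNMTi against TGFβ it fell 4.59-fold (log2 −2.20 ± 0.45 SE, adjusted p 0.00471), by log2 −1.51 (adjusted p 0.0482) without TGFβ replicate 1 and by log2 −2.84 (adjusted p 2.22e-05) without TGFβ replicates 2 and 3. The adjusted p was 0.0546 when these 2 groups alone were fitted. All 3 calls held with each library left out in turn. TGFβ+NNMTi against NNMTi was not called (log2 −1.16 ± 0.48 SE, adjusted p 0.0696), and its libraries overlapped. It passed without NNMTi replicate 2 (0.0478) or TGFβ+NNMTi replicate 2 (0.0464), and missed without any other library of these groups (up to 0.23). *Tnfaip2* was the member called in both inhibitor contrasts.

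*Cebpb* and *Cebpd* encode C/EBP transcription factors that work with NF-κB on acute-phase genes. *Cebpb* (ENSMUSG00000056501) stood at 44.0, 25.8 and 39.1 CPM in TGFβ+NNMTi, 38.0, 24.4 and 25.3 CPM in TGFβ, 50.1, 56.3 and 45.9 CPM in NNMTi and 66.4, 52.3 and 54.2 CPM in control libraries. Every TGFβ-treated library lay below every library without TGFβ. *Cebpb* fell 1.95-fold with TGFβ against control (log2 −0.96 ± 0.20 SE, adjusted p 0.00105, and 0.0502 without TGFβ replicates 2 and 3). *Cebpd* (ENSMUSG00000071637) moved the other way. It stood at 12.5, 9.55 and 9.9 CPM in TGFβ+NNMTi, 10.3, 10.4 and 10.7 CPM in TGFβ, 4.07, 5.21 and 2.18 CPM in NNMTi and 5.91, 6.42 and 5.85 CPM in control libraries. Every TGFβ-treated library lay above every library without TGFβ, and the NNMTi libraries were the lowest. *Cebpd* rose 1.72-fold with TGFβ against control (log2 0.78 ± 0.25 SE, adjusted p 0.0192), lost without control replicate 1 (0.0574) or 3 (0.0646) or without TGFβ replicates 2 and 3 (0.0844). It rose 2.80-fold in TGFβ+NNMTi against NNMTi (log2 1.48 ± 0.26 SE, adjusted p 0.000162), with each library left out as well. *Cebpb* overlaps *Tmem189* and *Cebpd* overlaps *Spidr* on the other strand.

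*Icam1*, an adhesion molecule, and *Il6*, a cytokine, are classical NF-κB targets. *Icam1* had 4 counts in TGFβ+NNMTi, 17 in TGFβ, 3 in NNMTi and 18 in control libraries, with exact 95% counting intervals of 1.09 to 10.2, 9.9 to 27.2, 0.619 to 8.77 and 10.7 to 28.4 counts. The TGFβ libraries held 2, 15 and 0 of these counts and the control libraries 7, 6 and 5, so that the TGFβ sum came almost wholly from replicate 2. All 4 counts of TGFβ+NNMTi were in its replicate 2. *Il6* had 1 count in TGFβ+NNMTi, 1 in TGFβ, 0 in NNMTi and 0 in control libraries. These intervals cover counting error only, and neither gene was tested.

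**Figure D4:**
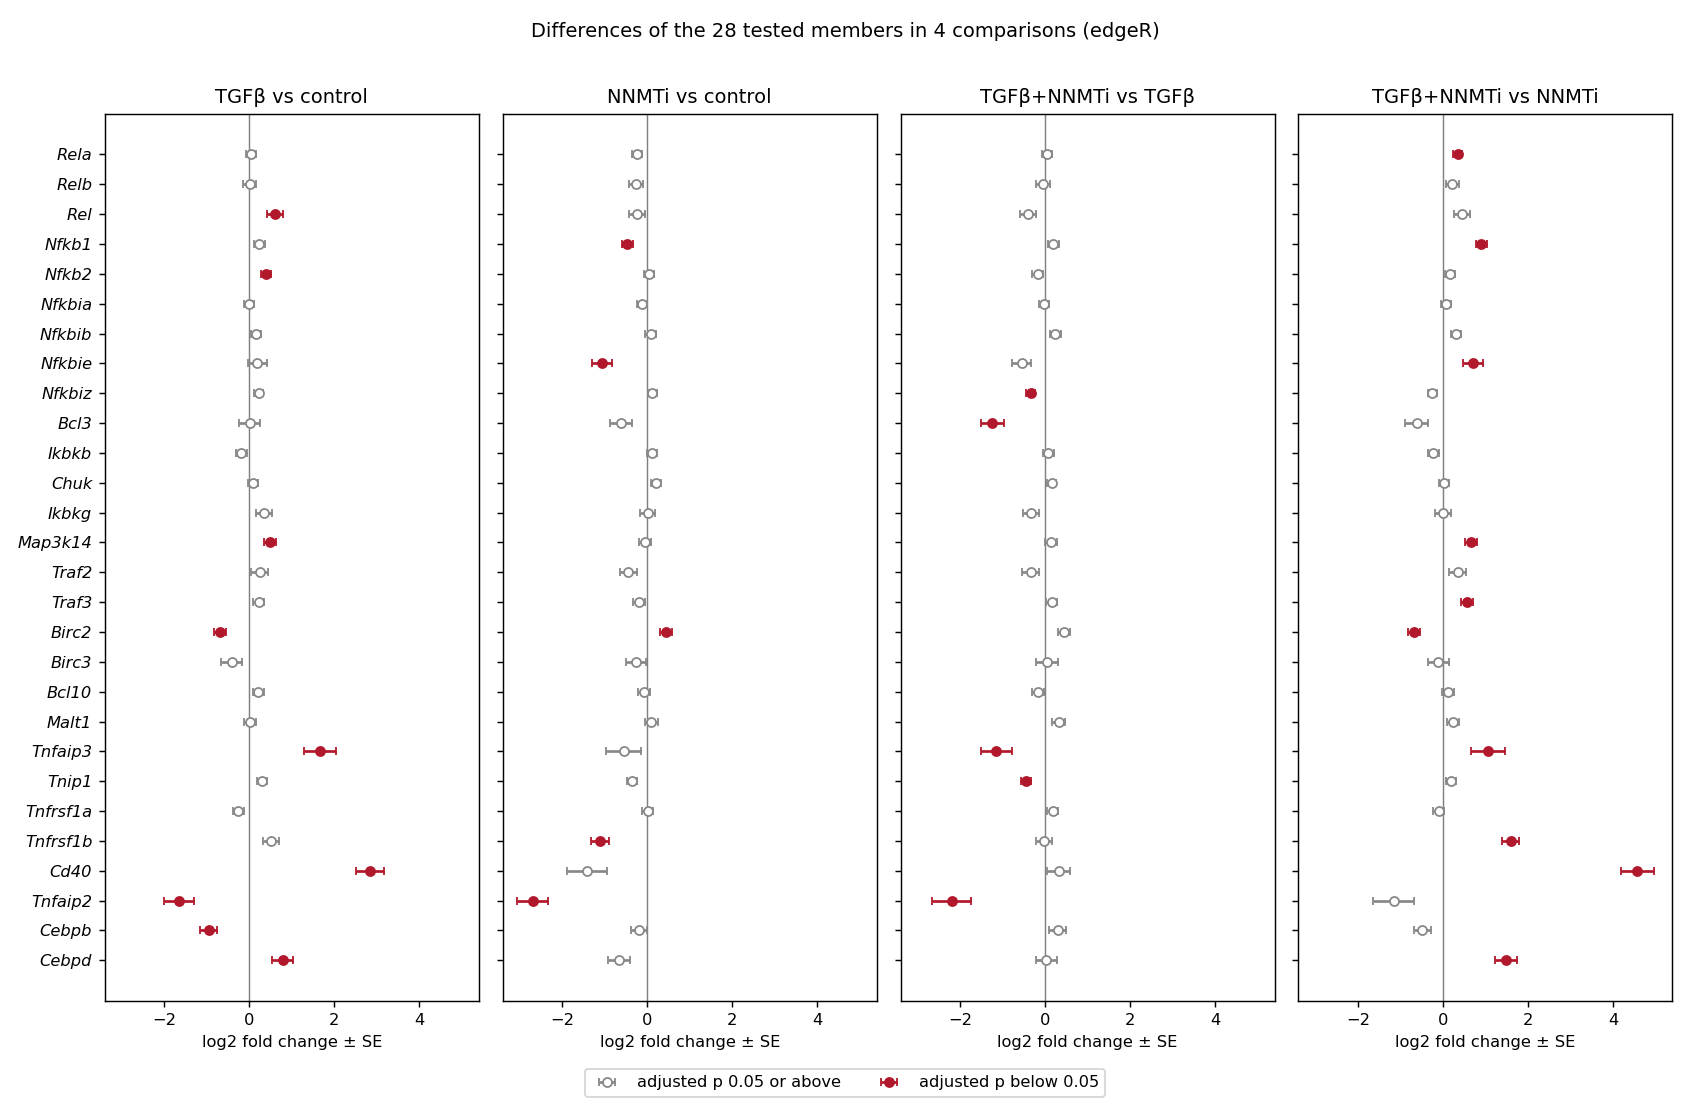
Log2 fold change ± SE of the 28 tested members in 4 comparisons, from edgeR. Filled points have an adjusted p below 0.05. *Cd40* lies farthest to the right in both TGFβ contrasts, and *Tnfaip2* farthest to the left in both inhibitor contrasts.

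The effect of the inhibitor was measured in cells without TGFβ (NNMTi against control) and in cells with it (TGFβ+NNMTi against TGFβ). These contrasts share no library. Of 28 members, 17 had the same sign in both (60.7%), beside 65.9% of all genes, with 11 lower in both and 6 higher in both. Across the 28 members the log2 differences had a Pearson r of 0.657, beside 0.492 across all genes. These values are descriptions, and genes are not independent replicates. *Tnfaip2* lay far from the rest in both contrasts. *Tnfrsf1b* was lower with the inhibitor without TGFβ (log2 −1.11) but level with it in TGFβ-treated cells (−0.02 ± 0.19). *Nfkb1* had log2 differences of 0.19 ± 0.13 with TGFβ and −0.47 ± 0.13 without. The difference between the 2 inhibitor effects, the interaction, was called by edgeR in 0 of 28 members, beside 1.11% of all genes (0.641% higher and 0.471% lower). At an unadjusted p below 0.05 there were 4 members, *Nfkb1*, *Nfkbiz*, *Tnfrsf1b* and *Cd40*. DESeq2 called 1 member and voom with quality weights 4. The interaction was 1.08 ± 0.28 on the log2 scale for *Tnfrsf1b* (adjusted p 0.0848, and 0.0159 without TGFβ replicate 1 or 0.0157 without TGFβ replicate 2). It was 0.66 ± 0.18 for *Nfkb1* (adjusted p 0.108, and 0.0303 without TGFβ replicate 2) and 1.74 ± 0.55 for *Cd40* (adjusted p 0.175, and 0.0379 without TGFβ replicates 2 and 3). It was −0.46 ± 0.15 for *Nfkbiz* (adjusted p 0.197).

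**Figure D5:**
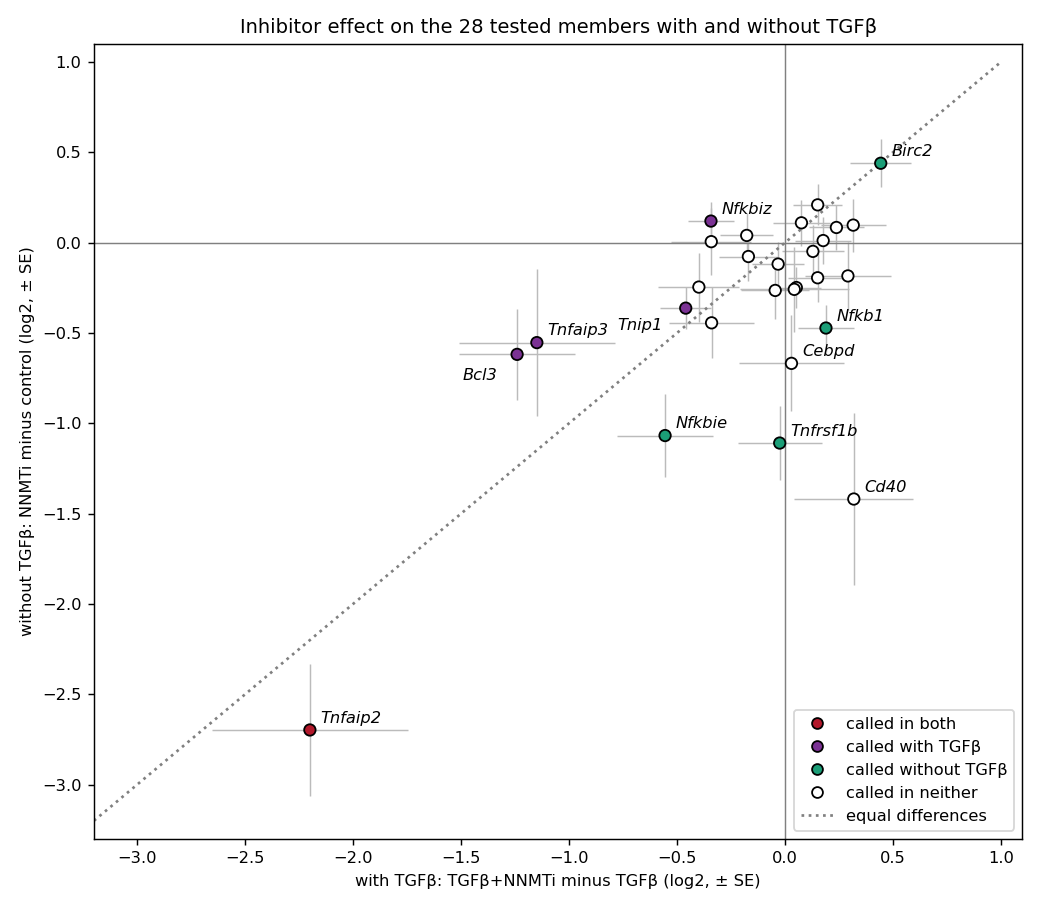
Log2 difference ± SE made by the NNMT inhibitor in TGFβ-treated cells (horizontal axis) and in cells without TGFβ (vertical axis) for the 28 tested members. Colours show in which contrast a member was called, and the dotted line marks equal differences. *Tnfaip2* is low on both axes, and *Tnfrsf1b* and *Cd40* are low on the vertical axis only.

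Matches to the κB consensus were set beside the calls. Of the 10 tested members with a match, 8 were called in at least 1 comparison (80.0%). Of the 11 tested members whose window held none, 5 were (45.5%). Members with no window given, among them the called *Nfkb1*, *Nfkbiz*, *Cd40* and *Cebpd*, are in neither share. Over all tested genes in the promoter table, 55.9% of 1178 with a match and 52.5% of 8211 without were called in at least 1 comparison. The member shares differed between contrasts. With TGFβ against control, 40.0% of members with a match and 27.3% of members without were called, beside 40.8% and 38.6% of all genes. With NNMTi against control these shares were 20.0% and 18.2% of members. By direction, 20.0% of members with a match were called lower and 0% higher. Of members without a match, 9.09% were called lower and 9.09% higher. Over all genes, 8.15% with a match were called lower and 2.8% higher, and 5.83% and 2.75% without. In TGFβ+NNMTi against NNMTi, 30.0% of members with a match and 36.4% of members without were called, beside 40.5% and 38.4% of all genes. In TGFβ+NNMTi against TGFβ, 4 of the 10 with a match were lower (*Bcl3*, *Tnfaip2*, *Tnfaip3* and *Tnip1*) and 0 of the 11 without. Over all genes these shares were 9.17% and 7.03%. *Nfkbiz*, the other member called lower in this contrast, had no window given. The calls of *Tnfaip3* and *Tnip1* there were lost on thinning (adjusted p 0.257 and 0.123) and in other alternatives given above. These shares were not tested.

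Other genes of the pathway were counted in 3 lists. Upstream receptors and adaptors had 25 of 39 genes tested. With TGFβ against control 6 rose and 3 fell, with NNMTi against control 1 rose and 3 fell, in TGFβ+NNMTi against TGFβ 1 rose and 0 fell, and in TGFβ+NNMTi against NNMTi 7 rose and 3 fell. As shares of the 25 genes these were 24% and 12%, 4% and 12%, 4% and 0%, and 28% and 12%, beside 19.4% and 17.1%, 2.47% and 5.8%, 3.45% and 6.97%, and 18.0% and 18.3% of all genes in the same order. The median log2 differences were 0.17, −0.02, 0.00 and 0.21, beside 0.02, 0.01, −0.02 and 0.00 over all genes. *Traf5*, another TRAF adaptor, stood at 4.63, 4.61 and 4.09 CPM in TGFβ+NNMTi, 4.52, 4.07 and 4.59 CPM in TGFβ, 52.8, 68.5 and 66.5 CPM in NNMTi and 33.6, 32.2 and 39.8 CPM in control libraries. It was low in every TGFβ-treated library and highest with NNMTi alone. *Traf5* fell 8.11-fold with TGFβ against control (adjusted p 1.6e-10), fell 14.0-fold in TGFβ+NNMTi against NNMTi (2.57e-12) and rose 1.78-fold with NNMTi against control (0.000492). *Tnfrsf12a*, the receptor of the ligand TWEAK, stood at 75.2, 55.4 and 83.6 CPM in TGFβ+NNMTi, 69.5, 74.2 and 67.7 CPM in TGFβ, 18.5, 17.2 and 12.4 CPM in NNMTi and 35.4, 34.0 and 36.7 CPM in control libraries. It rose 2.00-fold with TGFβ (adjusted p 4.52e-05) and fell 2.21-fold with NNMTi (0.000147) against control, and TGFβ+NNMTi overlapped TGFβ. *Irak2*, a kinase of the interleukin-1 and Toll-like receptors, stood at 61.1, 55.4 and 65.2 CPM in TGFβ+NNMTi, 51.4, 68.8 and 51.3 CPM in TGFβ, 20.9, 23.8 and 19.2 CPM in NNMTi and 31.8, 32.7 and 35.1 CPM in control libraries, an order of groups like that of *Tnfrsf12a*. *Irak2* rose 2.84-fold in TGFβ+NNMTi against NNMTi (adjusted p 7.2e-08). *Ripk2*, the kinase of the NOD receptors, rose 2.02-fold with TGFβ against control (adjusted p 0.00179). *Tlr4*, the endotoxin receptor, fell 1.58-fold with NNMTi against control (adjusted p 0.0407, and up to 0.233 under the alternatives tried). *Ltbr*, the lymphotoxin β receptor of the non-canonical branch, rose 1.42-fold in TGFβ+NNMTi against TGFβ (adjusted p 0.0105, and up to 0.141 under the alternatives).

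The list of signal relay and ubiquitin regulators had 36 of 40 genes tested, and *Skp1* had no match. With TGFβ against control 7 rose and 5 fell, with NNMTi against control 0 rose and 2 fell, in TGFβ+NNMTi against TGFβ 1 rose and 3 fell, and in TGFβ+NNMTi against NNMTi 7 rose and 4 fell, with median log2 differences of 0.06, −0.02, −0.04 and 0.08. The shares of the 36 genes were 19.4% and 13.9%, 0% and 5.56%, 2.78% and 8.33%, and 19.4% and 11.1%. Most lay near those of all genes or below them. Slightly above were the 3 lower genes in TGFβ+NNMTi against TGFβ (beside 6.97% of all genes). So were the 7 higher genes in TGFβ+NNMTi against NNMTi (beside 18.0%). *Usp18*, an interferon-induced protease that removes ISG15, stood at 61.5, 78.2 and 77.9 CPM in TGFβ+NNMTi, 142, 187 and 142 CPM in TGFβ, 11.5, 9.58 and 9.17 CPM in NNMTi and 20.9, 13.7 and 13 CPM in control libraries. It was highest in TGFβ, intermediate in TGFβ+NNMTi and low in the rest, with no overlap. *Usp18* rose 9.95-fold with TGFβ against control (adjusted p 1.11e-10) and fell 2.18-fold in TGFβ+NNMTi against TGFβ (0.000198). *Pdlim2*, which encodes a nuclear ubiquitin ligase for RelA, stood at 7.52, 11.7 and 10.8 CPM in TGFβ+NNMTi, 25.2, 20.5 and 24.9 CPM in TGFβ, 17.1, 20.1 and 18.3 CPM in NNMTi and 35, 40.7 and 43.5 CPM in control libraries. It was lower with the inhibitor at either TGFβ state without overlap. *Pdlim2* fell 2.33-fold in TGFβ+NNMTi against TGFβ (adjusted p 0.000192), 2.15-fold with NNMTi against control (0.00017) and 1.70-fold with TGFβ against control (0.000931), in all alternatives tried. *Map3k1*, a kinase upstream of JNK and the IκB kinases, fell 3.23-fold (adjusted p 4.91e-08) and *Prkcd*, protein kinase Cδ, 2.11-fold (8.83e-05) with TGFβ against control. *Ube2n*, which builds ubiquitin chains with TRAF6, fell 1.37-fold in TGFβ+NNMTi against TGFβ (adjusted p 0.0408, and up to 0.209 under the alternatives).

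Other target genes had 37 of 56 tested. With TGFβ against control 12 rose and 11 fell, with NNMTi against control 0 rose and 12 fell, in TGFβ+NNMTi against TGFβ 3 rose and 8 fell, and in TGFβ+NNMTi against NNMTi 15 rose and 9 fell, with median log2 differences of 0.02, −0.14, −0.21 and 0.26. The shares of the 37 genes were 32.4% and 29.7%, 0% and 32.4%, 8.11% and 21.6%, and 40.5% and 24.3%, above those of all genes except for the 0 higher with NNMTi against control. The list was chosen with earlier results of these data known, so part of this excess may come from the choice of genes. *Vcam1*, an adhesion molecule for leukocytes, stood at 43.9, 43.4 and 41.2 CPM in TGFβ+NNMTi, 120, 93.8 and 77.7 CPM in TGFβ, 79.2, 75.1 and 69.2 CPM in NNMTi and 238, 242 and 239 CPM in control libraries. It was highest in controls and lowest in TGFβ+NNMTi. *Vcam1* fell 2.30-fold in TGFβ+NNMTi against TGFβ (adjusted p 6.52e-06), where the libraries did not overlap. *Ptgs2*, which encodes cyclooxygenase-2, stood at 4.86, 3.48 and 4.89 CPM in TGFβ+NNMTi, 15, 12.8 and 18.4 CPM in TGFβ, 0.44, 0.828 and 1.42 CPM in NNMTi and 1.12, 0.121 and 1.61 CPM in control libraries. It rose in both TGFβ-treated groups and was highest without the inhibitor. *Ptgs2* rose 15.1-fold with TGFβ against control (adjusted p 1.09e-06) and fell 3.42-fold in TGFβ+NNMTi against TGFβ (0.00438). *Cxcl1*, a neutrophil chemokine, stood at 7.64, 7.75 and 7.0 CPM in TGFβ+NNMTi, 24.5, 9.92 and 25.3 CPM in TGFβ, 19.6, 23.0 and 23.1 CPM in NNMTi and 47.5, 46.5 and 45.3 CPM in control libraries. *Cxcl1* fell 2.53-fold in TGFβ+NNMTi against TGFβ (adjusted p 0.00533, and 0.0651 in a fit of these groups alone) and 2.12-fold with NNMTi against control (0.00765, and 0.0583 without NNMTi replicate 1). *Ccl5*, a T cell chemokine, rose 3.36-fold with TGFβ against control (adjusted p 5.86e-06) and fell 2.34-fold in TGFβ+NNMTi against TGFβ (0.00126). *Cxcl5*, another neutrophil chemokine, stood at 0, 0.337 and 0 CPM in TGFβ+NNMTi, 0.969, 0.62 and 0.383 CPM in TGFβ, 3.63, 4.73 and 2.18 CPM in NNMTi and 12.7, 12.0 and 11.5 CPM in control libraries. It fell 3.43-fold with NNMTi against control (adjusted p 0.00212), and *Il34*, a ligand of the CSF1 receptor, fell 3.08-fold (0.0035). *Tnfsf15*, a TNF family ligand, rose 18.1-fold in TGFβ+NNMTi against NNMTi (adjusted p 4.41e-09), and complement *C3* fell 11.2-fold (1.36e-11). Like *Cxcl5*, *Il34* and *Vcam1*, the members *Tnfaip2*, *Nfkbie*, *Tnfrsf1b* and *Nfkb1* were called lower with NNMTi against control, and *Birc2* was called higher. The other tested members passed no test there, including the targets *Cebpb* and *Cebpd* as well as *Nfkbia*, *Ikbkb* and *Chuk*.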

How the data were processed

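Messenger RNA of 12 im-TEC libraries, 3 in each of 4 groups, was read by QuantSeq 3′ FWD sequencing from total RNA. Per the submitters' processing notes, STAR and HTSeq were used and GRCh38 is listed as build. That is a human assembly, whereas the table holds mouse gene identifiers. Versions and strand setting are not given in the sources used here. The deposited values are whole-number counts per gene. Rows that name no gene were left out of library sizes (reads without a feature were 21.1 to 26.8% and ambiguous reads 0.613 to 0.802% of each library). Symbols were matched for 55141 of 55487 identifiers. Another gene overlaps 14 of the 32 members, 2 on the member's own strand.

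After filterByExpr and TMM scaling, genes were tested with edgeR 4.0.16 under R 4.3.3 by robust quasi-likelihood F-tests in 1 model of 4 group means, with Benjamini-Hochberg adjustment over 13581 genes and a threshold of 0.05. Fold changes come with SE. No pair of replicates was a duplicate (chi-square per degree of freedom 3.23 to 40.8). Replicate numbers were not shown to pair samples: of 18 same-number correlations between groups (−0.0847 to 0.202), 1 was above 0.1. Correlations between different numbers were not computed for comparison, so pairing was not settled. The procedure was tested on simulated data. All members are described. Every library is given for members called at 10 CPM or more, and up to 3 called genes per list and comparison are named. Members and lists were chosen with earlier results of these data known. Promoter sequences are from RefSeq (GRCm38.p6). Alternatives were DESeq2 1.42.0, voom from limma 3.58.1, other scalings, no filter, thinning, a replicate block, 2-group fits and leaving out libraries. Leaving out TGFβ replicates 2 and 3 together was chosen after seeing the data.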

Additional observations from a re-analysis of the deposited data

Results flagged for a closer look

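For 3 genes of the wider pathway lists, the effect of the inhibitor differed between cells with and without TGFβ by a test of that difference, the interaction in edgeR. *Tnfrsf12a*, the TWEAK receptor, had an interaction of 1.16 ± 0.22 on the log2 scale (adjusted p 0.0113). Its log2 difference was 0.01 ± 0.15 in TGFβ+NNMTi against TGFβ and −1.14 ± 0.16 in NNMTi against control. *Cx3cl1*, a membrane-bound chemokine, had an interaction of 0.99 ± 0.18 (adjusted p 0.00838), with log2 differences of 0.40 ± 0.13 with TGFβ and −0.59 ± 0.13 without. Both calls were kept in all 20 alternatives tried. *Mmp9*, a matrix protease, had an interaction of 1.42 ± 0.34 (adjusted p 0.0473), with −0.47 ± 0.17 with TGFβ and −1.89 ± 0.29 without, and was called in 6 of 20 alternatives. Its NNMTi libraries held 1.43, 1.42 and 0.655 CPM.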

How the results depend on the processing

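Where both counts of calls are given, members of 28 come first and all genes after. Among single-member values, 345 kept direction and side of the threshold, 75 kept direction but missed it, and 0 reversed. Of the counts, 109 stayed within 1.5 times and 47 did not. In TGFβ against control, voom called 14 members (11 higher, 3 lower) and thinning gave 6 (2 higher, 4 lower). Counts of all genes in these fits are not given here, so these splits have no background. In NNMTi against control, voom called 10 members (2 higher, 8 lower) and 3064 genes, fitting these 2 groups alone gave 8 members (1 higher, 7 lower) and 2931 genes, and thinning to the shallowest library gave 660 genes. In TGFβ+NNMTi against TGFβ, thinning gave 2 members and 824 genes, and the 2 groups alone gave 1 member and 408 genes. For the interaction, testing with no filter gave 3 members and 306 genes, DESeq2 1 and 266, voom 4 and 483, leaving out TGFβ replicates 2 and 3 gave 1 and 350, and thinning gave 92 genes. The cause was not tested. Thinning lowers the depth by construction.

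With 1 library left out, members called ranged from 6 to 12 in TGFβ against control, 2 to 4 in NNMTi against control, 2 to 5 in TGFβ+NNMTi against TGFβ, 7 to 10 in TGFβ+NNMTi against NNMTi and 0 to 2 in the interaction. All genes called ranged from 4038 to 5166, 591 to 684, 762 to 1938, 4098 to 4395 and 65 to 399 in the same order.

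With the replicate number as a block, members called were 10, 4, 4 and 13 in these pairwise contrasts and 1 in the interaction, and all genes called were 4875, 1033, 1306, 4887 and 119. The numbers were not shown to pair samples.

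Depth limits *Traf1*, *Tnf*, *Icam1* and *Il6*, which were not tested, and *Cd40* in NNMTi libraries, where 1 library held 1 count.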
